A study of Mus musculus with 10 samples.

Results

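The genes described here are 32 genes of the unfolded protein response and of secretory stress, chosen by name: 15 that fold proteins in the endoplasmic reticulum (ER), 6 of ER-associated degradation, 4 sensors and transcription factors of the first signalling branches, 6 of the ATF4 branch and 1 translocon subunit. Of these, 31 have a row among the 23202 genes of the sorted macrophage table, where Chac1 has none, and 32 have a row among the 19720 genes of the whole tumor table. They were measured by RNA sequencing in MMTV-PyMT mice on a B6 background, whose mammary epithelium carries a viral oncogene and forms tumors spontaneously. Every mouse carried floxed Cxcr4, the receptor of the chemokine CXCL12, on both alleles. In the group called cKO, Cre recombinase was driven by the myeloid LysM promoter, which is active in macrophages and other myeloid cells and is not specific to tumor macrophages. The control group were littermates without Cre. Tumors were taken at 15 weeks, in pairs matched for size. Cells sorted on F4/80 and CD11b gave 3 cKO libraries (mice 725, 746 and 867) and 3 control libraries (mice 706, 720 and 775). Whole tumors gave 2 cKO libraries (725 and 746) and 2 control libraries (706 and 720), so 4 mice have a library in both tables. The comparison asks how macrophages and tumors differ when myeloid cells are made to lose this receptor.

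The ER folds and glycosylates proteins that enter the secretory path, and misfolded ones are drawn back to the cytosol and destroyed. When the load exceeds the folding capacity, 3 membrane sensors respond: IRE1 (gene Ern1) splices the mRNA of Xbp1, ATF6 is cut to release a transcription factor, and PERK (Eif2ak3) phosphorylates eIF2 and so slows translation while that of ATF4 increases. ATF6 and XBP1 are known to induce chaperones and degradation factors, and ATF4 induces genes of amino acid supply, of eIF2 dephosphorylation and of stress-linked cell death. Other kinases than PERK also phosphorylate eIF2, so the ATF4 branch is shared with responses to amino acid shortage and other stress. Macrophages and milk-secreting mammary epithelium both secrete large amounts of protein. The tables give a single value a gene, so spliced and unspliced Xbp1 mRNA, cut ATF6 and phosphorylated eIF2 were not measured.

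The letters that ATF6 and XBP1 are known to read were present in 7 of 13 folding gene promoters. The ER stress response element (ERSE, spelled CCAAT, then 9 bases of any kind, then CCACG, searched on both strands) was found in the RefSeq promoter windows of 8 of the 28 genes that have one, against 39 of all 32851 mouse windows (0.119%). A window runs from 250 bases before to 50 bases after an annotated start, in GRCm38.p6. Here and below, a gene counts when any of its windows holds the element, while the share over all windows is per window. Of 13 folding genes with a window, 7 held an ERSE (Calr, Canx, Creld2, Dnajc3, Hsp90b1, Hspa5 and Pdia6), and so did Syvn1 among the degradation genes. Neither the 3 sensor genes with a window nor the 6 genes of the ATF4 branch held one. The stretches below show it in 7 of these genes, with the fixed letters of the element in capitals. On the opposite strand it reads CGTGG first and ATTGG last. The positions are chr2:34771970-34772089, plus strand for Hspa5, chr10:86705525-86705664, minus strand for Hsp90b1, chr8:84847032-84847111, minus strand for Calr, chr11:50325774-50325833, minus strand for Canx, chr12:17266469-17266528, plus strand for Pdia6, chr14:118937812-118937871, plus strand for Dnajc3 and chr19:6046496-6046575, plus strand for Syvn1. Hsp90b1 holds an ERSE in each direction.
Hspa5: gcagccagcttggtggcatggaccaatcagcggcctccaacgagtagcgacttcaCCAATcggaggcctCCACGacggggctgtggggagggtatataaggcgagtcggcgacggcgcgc
Hsp90b1: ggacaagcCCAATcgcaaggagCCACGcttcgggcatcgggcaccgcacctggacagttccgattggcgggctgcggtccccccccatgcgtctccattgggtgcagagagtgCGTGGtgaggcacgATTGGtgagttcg
Calr: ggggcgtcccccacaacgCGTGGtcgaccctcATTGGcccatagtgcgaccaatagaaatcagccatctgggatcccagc
Canx: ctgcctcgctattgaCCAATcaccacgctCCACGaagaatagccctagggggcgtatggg
Pdia6: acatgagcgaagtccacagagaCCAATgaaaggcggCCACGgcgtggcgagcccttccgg
Dnajc3: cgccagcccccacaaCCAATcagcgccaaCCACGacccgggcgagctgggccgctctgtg
Syvn1: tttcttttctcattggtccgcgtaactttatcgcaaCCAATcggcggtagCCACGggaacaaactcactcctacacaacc

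A second form of the element, ERSE-II (ATTGG, 1 base of any kind, then CCACG), was found in Dnajb11 and Herpud1, and in 12 of all windows (0.0365%). The core read by ATF4 with its C/EBP partners (the C/EBP-ATF response element, CARE, here TGATGNAA) was found in 3 of the 6 ATF4-branch genes, Asns, Chac1 and Trib3, and in Herpud1. It is the shortest and commonest of these elements, present in 1304 windows (3.97%). Herpud1, alone among the 28 genes, held both kinds. The XBP1 element core (TGACGTGG) was found in none of the 28 and in 0.676% of all windows. The stretches are from Herpud1 (chr8:94386299-94386398, plus strand), which shows an ERSE-II and a CARE core, Chac1 (chr2:119351022-119351081, plus strand) and Asns (chr6:7693210-7693269, minus strand). Capitals mark the fixed letters. A match of letters is not a measured site.
Herpud1: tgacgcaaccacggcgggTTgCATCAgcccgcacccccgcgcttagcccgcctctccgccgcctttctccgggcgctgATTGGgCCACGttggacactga
Chac1: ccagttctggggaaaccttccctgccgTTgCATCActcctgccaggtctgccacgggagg
Asns: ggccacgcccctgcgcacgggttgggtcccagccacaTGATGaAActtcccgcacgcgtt

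Levels below are in CPM (counts scaled so that each library sums to 1e+06), and every cKO and control difference is on the log2 scale of CPM + 1. The step that 1 read makes among weakly read genes puts the depth at 14.4 to 25.2 M reads (M, 1e+06) for sorted cells and 34.2 to 53.4 M for tumors. Cxcr4, the gene targeted, showed no drop under the cKO label, since it was at 41.9, 165.2 and 24.1 CPM in cKO macrophages and 14.4, 135.4 and 54.3 CPM in control macrophages. In whole tumors it was at 47.9 and 57.6 CPM in cKO and 29.8 and 33.4 CPM in control, so it was not lower there either. Each direction given for cKO is therefore that of the library labelled so. The 8 macrophage markers summed to 1585 to 1935 CPM in cKO and 834 to 1802 CPM in control sorted libraries, against 84.7 to 92.1 CPM in cKO and 92.8 to 96.0 CPM in control tumors. Luminal epithelial markers were also abundant after sorting, with 7 genes summing to 2073 to 3015 CPM in cKO and 2095 to 2647 CPM in control sorted libraries. In each sorted library the luminal sum was above the macrophage sum. Values given for cKO or control macrophages are those of these mixed sorted libraries. In such mixed samples, fewer cells of a type and less RNA per cell cannot be told apart.

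Per length, Calr and Xbp1 headed the sorted libraries. On the scale of CPM per kilobase of exon, Calr, a calcium-binding lectin chaperone, was at 157 ± 46.4 over the 6 sorted libraries (SD). Xbp1, the transcription factor made by IRE1 splicing, followed at 146 ± 23.5, P4hb, a protein disulfide isomerase, at 127 ± 17.0, and Atf4 at 114 ± 32.8 CPM per kilobase. These 4 neighbours overlapped within their spreads. The other ATF4-branch genes lay at the low end, with Ppp1r15a at 13.3 ± 4.33, Asns at 4.82 ± 2.51, Ddit3 at 4.51 ± 2.73 and Trib3, the lowest of the 31, at 1.60 ± 1.22 CPM per kilobase. In the 4 tumor libraries Xbp1 came first at 219.6 ± 51.8 CPM per kilobase, above P4hb at 121 ± 9.01, Hsp90b1 at 118 ± 13.5 and Calr at 103 ± 7.78. Atf4 stood ninth there at 28.1 ± 9.47 CPM per kilobase, and Trib3, Ppp1r15a and Chac1 were under 0.5.

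**Figure D1:**
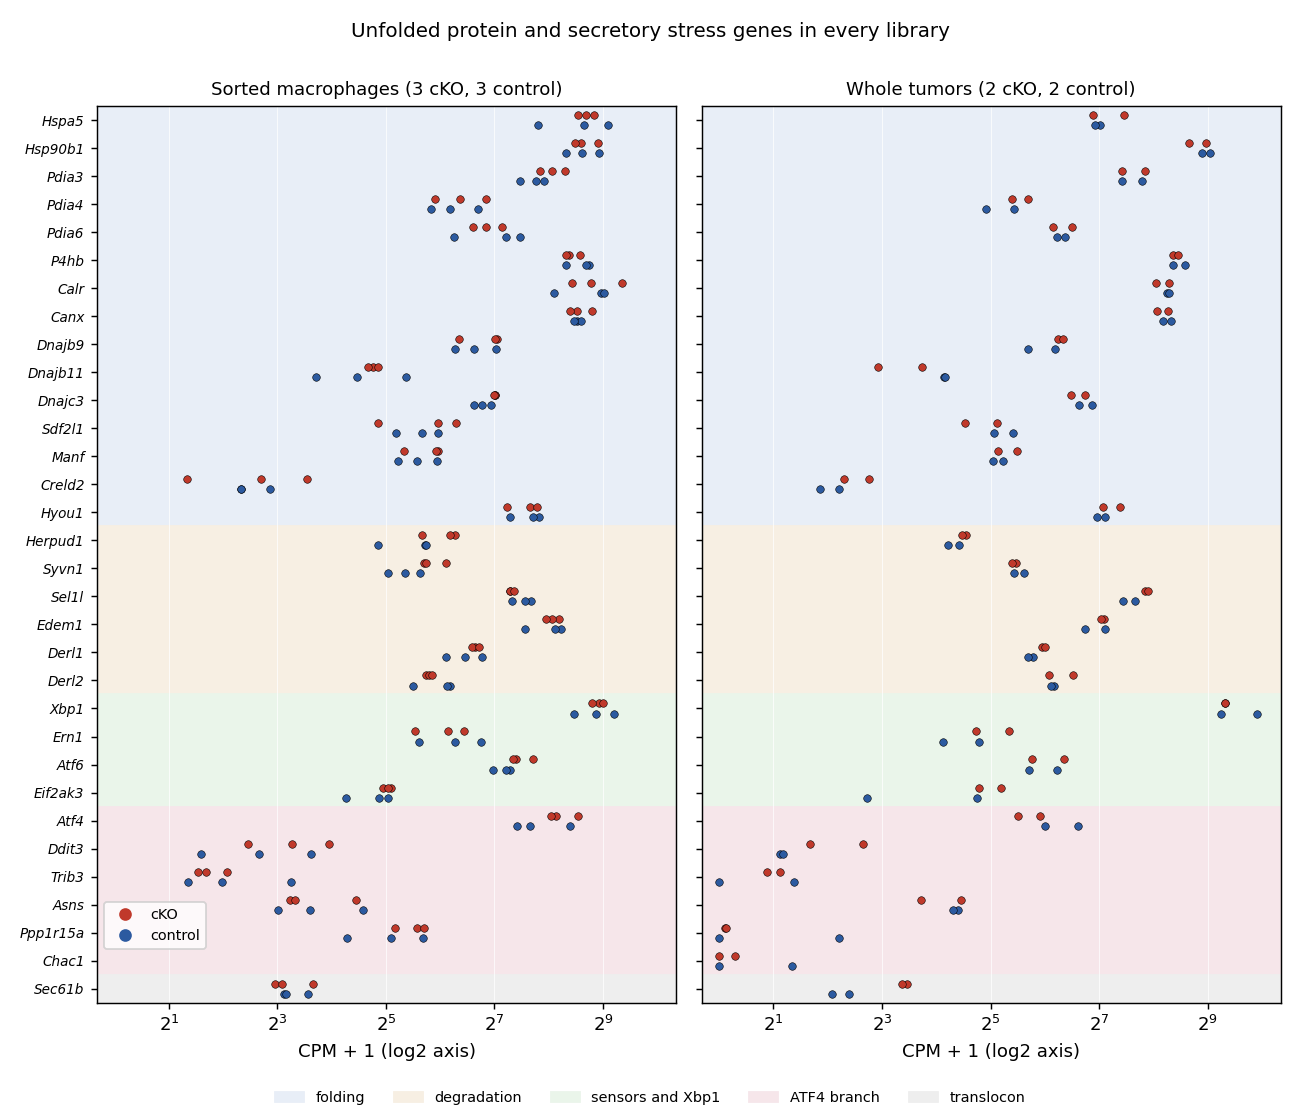
Level of each gene in every library, as CPM + 1 on a log2 axis, with sorted macrophages on the left and whole tumors on the right; red points are cKO and blue points control libraries, and the shading marks the functional groups. Most folding genes lie well above the ATF4-branch genes other than Atf4, and red and blue points mix in nearly every row of the left panel.

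No gene of the unfolded protein response passed the test between cKO and control macrophages. Among 31 genes, 22 log2 differences were positive and 9 negative (median 0.13), beside 54.7% positive and a median of 0.045 over all 16304 genes tested. None had an adjusted p under 0.05 (limma, adjusted p = 0.9998 for each of the 31; 0% of all genes). None had an unadjusted p under 0.05 either, where 2.63% of all genes did. All 3 cKO libraries lay above all 3 controls for 3 of the 31 genes (Dnajc3, Syvn1 and Atf6), where 3.78% of all genes did so. None of the 31 lay below in the same way, where 3.45% of all genes did. Under trimmed mean and under median-ratio scaling Syvn1 and Atf6 stood above (3.89% and 3.73% of all genes did) and Sel1l below (3.65% and 3.81%), and under protein-coding scaling Syvn1 above (3.13%) and Sel1l below (4.35%). The direction rests on control 775: without it, 12 of 31 differences were positive and the median was -0.10, beside 49.0% positive and -0.014 over all genes. Without cKO 867, 25 of 31 were positive and the median was 0.17, beside 51.9% positive and 0.022 over all genes.

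In values by library below, the cKO mice stand as 725, 746 and 867 and the control mice as 706, 720 and 775. Among folding genes, 12 of 15 differences were positive, with a median of 0.13, and all 15 had an interval that included 0. Hspa5, which encodes the main ER chaperone BiP, was at 413, 453 and 373 CPM in cKO macrophages, against 547, 399 and 221.8 CPM in controls. The controls spanned the cKO values on both sides, and the log2 difference was 0.18 (95% interval -0.42 to 0.77). Hsp90b1, the ER form of HSP90 (GRP94), was at 479, 385 and 355 CPM in cKO and 484, 389 and 319 CPM in control macrophages, a log2 difference of 0.04 (95% interval -0.48 to 0.57). Its groups overlapped almost wholly. Dnajc3, a co-chaperone of BiP also known as p58IPK, was at 129, 128 and 127 CPM in cKO macrophages, against 97.3, 108 and 121 CPM in controls. The 3 cKO values were close to each other and above each control, with a log2 difference of 0.24 (95% interval -0.28 to 0.75). Pdia3, a disulfide isomerase that works with the lectin chaperones, had the highest folding difference, 0.35 (95% interval -0.17 to 0.86), at 265, 315 and 229 CPM in cKO and 241, 176 and 218 CPM in control macrophages. Control 706 lay above cKO 867, so the groups overlapped.

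The other folding genes had log2 differences between -0.17 and 0.25. The negative ones were P4hb, Pdia6, a further disulfide isomerase, at -0.12, and Hyou1, a large chaperone that exchanges nucleotides on BiP, at -0.05. The positive ones were Calr and its membrane-bound relative Canx at 0.16 and 0.04, the isomerase Pdia4 at 0.13, the BiP co-chaperones Dnajb9, Dnajb11 and Sdf2l1 at 0.16, 0.25 and 0.10, and the secreted stress proteins Manf and Creld2 at 0.15 and 0.02. Creld2 was the most variable folding gene, at 5.51, 10.7 and 1.51 CPM in cKO and 4.03, 6.28 and 4 CPM in control macrophages. Dnajb11 was even in cKO macrophages, at 26.3, 27.8 and 24.3 CPM, and spread in controls, at 21.3, 40.2 and 12.04 CPM.

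Degradation genes held the largest positive difference of the pathway branches led by ATF6 and XBP1, and it did not pass the test. Herpud1, a membrane protein of the degradation complex, was at 76.7, 71.2 and 49.7 CPM in cKO macrophages, against 51.8, 52.3 and 28.1 CPM in controls. The lowest cKO library, 867, lay below 2 of the controls, and the log2 difference was 0.60 (95% interval -0.06 to 1.26), with an unadjusted limma p of 0.0735 and an adjusted p of 0.9998. With 1 library left out this difference ranged from 0.31 (without control 775) to 0.79 (without cKO 867). Syvn1, the ubiquitin ligase HRD1, was at 51.1, 67.9 and 52.3 CPM in cKO and 39.7, 48.4 and 31.96 CPM in control macrophages, a log2 difference of 0.51 (95% interval -0.12 to 1.14). Each cKO value lay above each control. Sel1l, the partner of HRD1, went the other way, at 155, 155 and 164 CPM in cKO and 204, 187 and 159 CPM in control macrophages, a log2 difference of -0.20 (95% interval -0.71 to 0.30). Edem1, which marks misfolded glycoproteins, and the derlins Derl1 and Derl2, membrane factors of retrotranslocation, had log2 differences of 0.10, 0.20 and -0.14. The degradation median was 0.15, and it was -0.036 without control 775.

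The 3 sensors and Xbp1 had a median difference of 0.18, which ranged from 0.053 (without control 775) to 0.311 (without control 706) with 1 library left out. Atf6 was at 168, 209 and 162 CPM in cKO macrophages, against 156, 147 and 125 CPM in controls, with each cKO value above each control. Its log2 difference was 0.33 (95% interval -0.18 to 0.84). Xbp1, abundant in all 6 libraries, was at 485, 512 and 442 CPM in cKO and 586, 469.7 and 355 CPM in control macrophages, a log2 difference of 0.06 (95% interval -0.48 to 0.59). Ern1 was at 45.4, 69.9 and 85.6 CPM in cKO and 76.8, 107 and 48.0 CPM in control macrophages, with a difference of -0.18. Eif2ak3 was at 30.0, 33.2 and 31.9 CPM in cKO and 31.7, 18.3 and 28.4 CPM in control macrophages, with a difference of 0.30. The groups overlapped for both genes, and the lowest Eif2ak3 value was that of control 720.

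Within the ATF4 branch, cKO macrophages had higher means for Atf4, Ddit3 and Ppp1r15a and lower ones for Trib3 and Asns, and cKO and control overlapped for each of the 5. Atf4, the transcription factor of the branch, was at 281, 372 and 262 CPM in cKO and 199.6, 335 and 169 CPM in control macrophages, a log2 difference of 0.42 (95% interval -0.15 to 0.99). Control 720 lay above cKO 725 and 867. Ddit3 (CHOP), a factor linked to stress-induced death, was at 4.52, 8.605 and 14.5 CPM in cKO and 2.01, 11.4 and 5.35 CPM in control macrophages, a log2 difference of 0.60 (95% interval -0.78 to 1.98). Ppp1r15a (GADD34), which directs the phosphatase of eIF2, was at 35.1, 46.8 and 50.9 CPM in cKO and 18.5, 50.6 and 33.0 CPM in control macrophages, with 0.46 (95% interval -0.29 to 1.21). For these 3 genes, control 720 lay within the cKO range. With 1 library left out, Atf4 ranged from 0.219 (without control 775) to 0.71 (without control 720). Ddit3 ranged from 0.0829 (without control 706) to 1.1 (without control 720), and Ppp1r15a from 0.0963 to 0.796 without the same libraries. Trib3, a pseudokinase that ATF4 and CHOP induce, was at 2.21, 3.20 and 1.91 CPM in cKO and 2.92, 8.55 and 1.57 CPM in control macrophages, with a difference of -0.43. Asns, asparagine synthetase, was at 8.36, 8.96 and 20.7 CPM in cKO and 7.02, 22.9 and 11.2 CPM in control macrophages, with a difference of -0.07. Sec61b, a subunit of the channel through which proteins enter the ER, was at 11.7, 6.76 and 7.51 CPM in cKO and 10.8, 7.66 and 7.93 CPM in control macrophages, with a difference of -0.04.

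**Figure D2:**
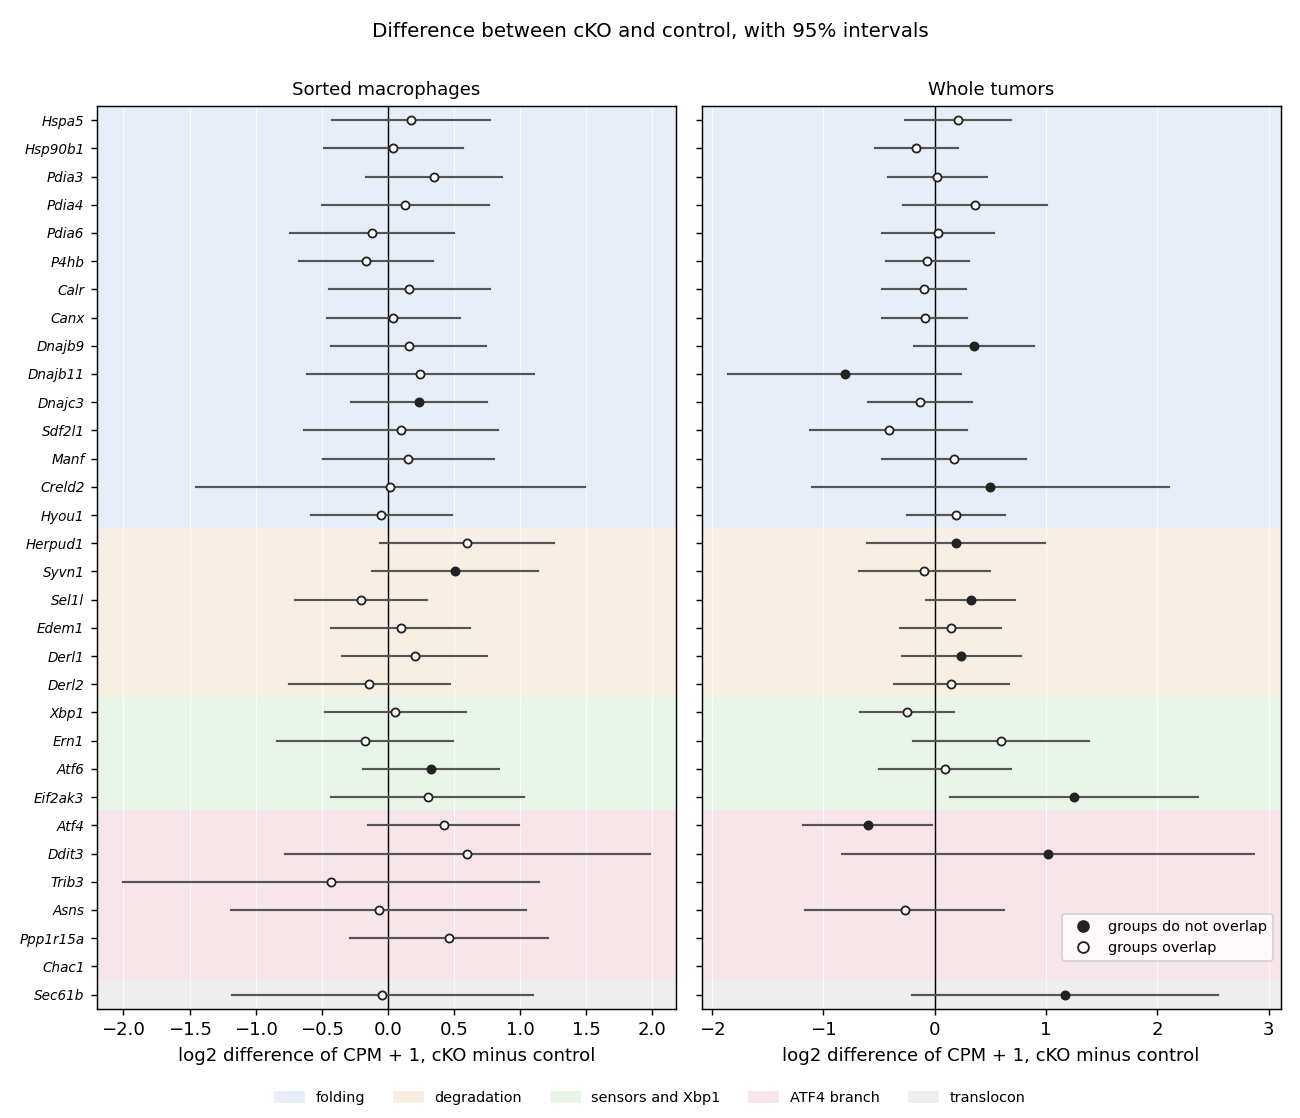
Difference of cKO minus control for each gene on the log2 scale of CPM + 1, with 95% intervals from limma, in sorted macrophages (left, 3 against 3 libraries) and whole tumors (right, 2 against 2); filled points mark genes whose groups do not overlap. Every interval on the left includes 0, and on the right those of Eif2ak3 and Atf4 do not; 3 genes that failed the filter have no point on the right, and Chac1 has none on either side.

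Folding and degradation genes ranked the 6 sorted libraries in the same order, and the ATF4 branch in another. Over the 15 folding genes, the mean log2 deviation from each gene's mean was 0.11, 0.27 and -0.23 in cKO 725, 746 and 867, against 0.056, 0.18 and -0.38 in control 706, 720 and 775. For the 6 degradation genes it was 0.11, 0.14 and 0.017 in those cKO libraries and 0.073, 0.13 and -0.47 in those controls. Both were highest in cKO 746 and lowest in control 775, with cKO 867 next to lowest. These last 2 libraries also stood apart in markers of other cells. The 5 fibroblast markers summed to 1156 CPM in cKO 867 and 418.8 CPM in control 775, against 56.5 to 137 CPM in the other 4, and the 4 endothelial markers to 225.3 CPM in cKO 867 and 87.1 CPM in control 775, against 14.3 to 20.4 CPM. Their part in the folding and degradation values was not tested. The 5 ATF4-branch genes had -0.24, 0.18 and 0.36 in cKO 725, 746 and 867 and -0.68, 0.73 and -0.35 in control 706, 720 and 775. Control 720 was above the mean for 5 of 5 ATF4-branch genes, and controls 706 and 775 for 0 of 5. In cKO 867, 4 of 5 ATF4-branch genes lay above the mean, and 4 of 15 folding genes did.

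Control 775 held the lowest value for 16 of 31 genes (51.6%) and the highest for 0, where it was lowest for 18.9% and highest for 9.95% of all genes. These included 7 of 15 folding genes and 5 of 6 degradation genes. Its 8 macrophage markers summed to 834 CPM, against 1762 and 1802 CPM in the other controls, and protein-coding genes took 67.6% of its reads, the smallest share of the 6. Scaled to protein-coding genes, 18 of 31 differences between cKO and control were positive, with a median of 0.068, beside -0.011 over all genes. The part of these library properties in the low values was not tested. The ATF4-branch means can be set beside 9 immediate early and heat shock genes, which respond to tissue dissociation and summed to 8180, 9050 and 9449 CPM in cKO 725, 746 and 867 and to 8309, 11610 and 7381 CPM in control 706, 720 and 775. Control 720 was highest and cKO 867 the next highest on both counts. Whether the ATF4 branch followed these genes was not tested.

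**Figure D3:**
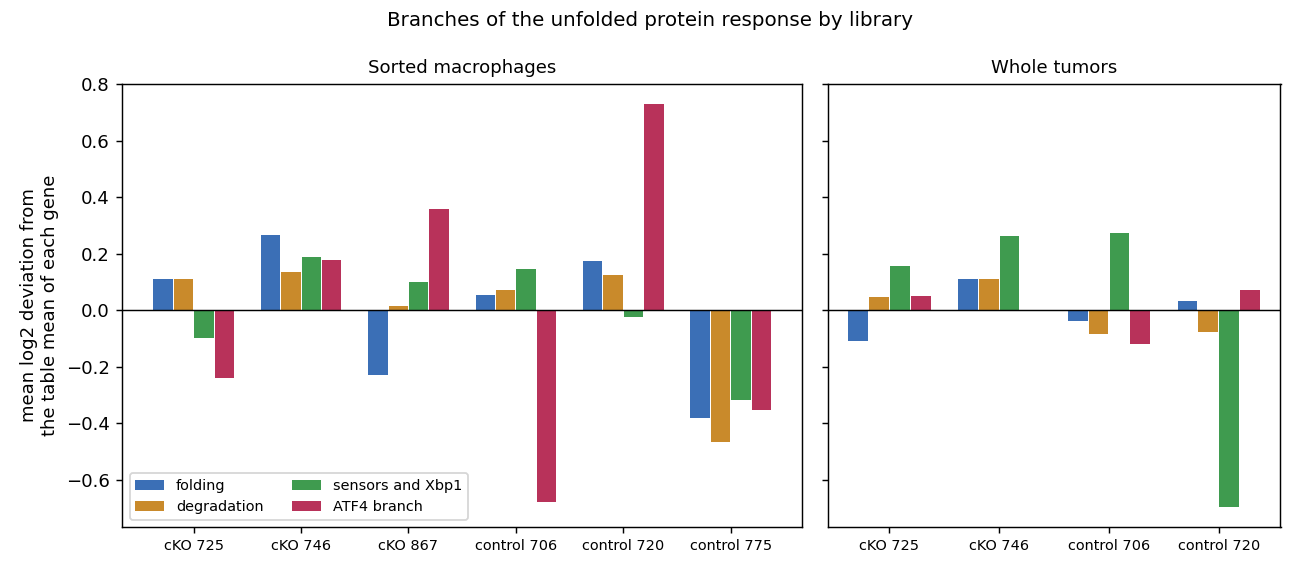
Mean log2 deviation of each functional group from its genes' mean over the table, for each sorted library (left) and each tumor library (right), with cKO mice left of control mice in each panel. In sorted macrophages the ATF4 branch ranges from -0.68 in control 706 to 0.73 in control 720, and the folding and degradation groups are lowest in control 775.

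The genes of the unfolded protein response varied less between mice than most genes. Their median SD over the 6 sorted libraries was 0.36 log2 units, against 0.59 over all genes tested, and over the 4 tumor libraries 0.23 against 0.49. The expression levels of the 2 sets were not matched. Degradation genes were the steadiest in the sorted libraries (0.25) and ATF4-branch genes the most variable (0.66). The highest value was 1.32 times the lowest for Canx, Dnajc3 and Sel1l, and 7.22 times for Ddit3.

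Whole tumors gave no call either. Of the 32 genes, 29 passed the filter of a mean of 1 CPM, and Trib3, Ppp1r15a and Chac1 did not. None of the 29 had an adjusted p under 0.05 (limma; 0% of the 14630 genes tested, lowest adjusted p 0.492), and 2 had an unadjusted p under 0.05, where 5.85% of all genes did. Both cKO tumors lay above both controls for 8 genes (21.2% of all genes did so) and below for 2 (14.3% of all genes). The split of these genes depended on the scaling. Under trimmed mean scaling 6 stood above and 8 below, where 18.2% and 17% of all genes did. Under median-ratio scaling 5 stood above and 9 below, where 17.5% and 17.7% did, and under protein-coding scaling, where 31 genes passed the filter, 4 stood above and 10 below, where 16% and 18.2% did. Ddit3, Derl1, Sec61b and Sel1l stood above, and Atf4 and Dnajb11 below, under all 4 scalings. Protein-coding scaling moved the median of all genes to -0.025, from 0.089 on the library total.

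Eif2ak3, the PERK sensor, had the largest difference in tumors. It was at 26.6 and 35.7 CPM in cKO 725 and 746, against 26.0 and 5.65 CPM in control 706 and 720. The log2 difference of 1.25 (95% interval 0.14 to 2.36) rested on control 720, since control 706 lay just under the lower cKO tumor. Without control 720 the difference was 0.24. With all 4 libraries the unadjusted limma p was 0.03 and the adjusted p 0.833. The unadjusted p was above 0.05 with a pseudocount of 0.1, with no intensity trend and under protein-coding scaling, where the groups also overlapped. The macrophage library of the same mouse 720 also held the lowest Eif2ak3 of its table, 18.3 CPM, against 28.4 to 33.2 CPM in the other 5. Atf4 was lower in both cKO tumors, at 59.1 and 44.7 CPM, against 63.4 and 97.4 CPM in controls. Its log2 difference was -0.60 (95% interval -1.19 to -0.02) with an unadjusted limma p of 0.0433 and an adjusted p of 0.833. Left out one at a time, the libraries gave -0.909 (without control 706) to -0.298 (without control 720), and the unadjusted p was above 0.05 without cKO 725, cKO 746 or control 720, with a pseudocount of 0.1 and with no intensity trend. The tumor Atf4 difference was opposite in sign to the macrophage value of 0.42, which also includes mice 867 and 775, without tumor libraries. The difference between the tables was not tested. Of the other ATF4-branch genes, Ddit3 was at 2.19 and 5.31 CPM in cKO and 1.17 and 1.26 CPM in control tumors, and Asns at 21.0 and 12.1 CPM in cKO and 20.2 and 18.9 CPM in control tumors.

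The 3 genes under the filter were barely read in tumors. Trib3 was at 0.843 and 1.19 CPM in cKO and 0 and 1.60 CPM in control tumors. Ppp1r15a was at 0.0749 and 0.0847 CPM in cKO tumors, against 3.60 and 0 CPM in controls. Chac1, an enzyme that degrades glutathione and is induced by ATF4, was at 0 and 0.226 CPM in cKO tumors, against 0 and 1.52 CPM in controls. A value of 0 allows up to 0.0562 CPM (3 reads) in cKO 725, up to 0.0878 in control 706 and up to 0.0860 in control 720, counting error only.

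Among the other tumor values, the folding genes split 8 positive to 7 negative, with a median of 0.025. Dnajb11 was lower in both cKO tumors, at 6.65 and 12.3 CPM, against 16.6 and 16.8 CPM in controls, with a log2 difference of -0.81 (95% interval -1.86 to 0.24). Dnajb9 was at 74.4 and 80.3 CPM in cKO and 50.9 and 71.5 CPM in control tumors, and Creld2 at 5.81 and 3.93 CPM in cKO and 2.63 and 3.61 CPM in control tumors. In these 2 genes both cKO values were above both controls on the library total. Hspa5 was at 118 and 176 CPM in cKO and 128 and 121 CPM in control tumors, with the high value in cKO 746 alone. That tumor was the highest of the 4 for 8 of 15 folding genes (53.3%, where it was highest for 30.0% of all genes). The other, cKO 725, was the lowest for 8 (53.3%, where it was lowest for 23.6% of all genes). The cKO tumors thus stood at opposite ends for many folding genes. The remaining 11 folding genes had log2 differences between -0.41 (Sdf2l1) and 0.36 (Pdia4).

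Degradation genes were positive for 5 of 6 in tumors, with a median of 0.17, beside 0.089 over all genes. Sel1l was at 228 and 239 CPM in cKO and 173 and 201 CPM in control tumors, a log2 difference of 0.32 (95% interval -0.07 to 0.72). Derl1 was at 60.5 and 63.2 CPM in cKO and 54.0 and 50.5 CPM in control tumors, and Herpud1 at 22.3 and 21.3 CPM in cKO and 20.4 and 17.7 CPM in control tumors. In these 3 genes the groups did not overlap on the library total. Edem1, Derl2 and Syvn1 had differences of 0.14, 0.15 and -0.09. Under protein-coding scaling the median was 0.057, where that of all genes was -0.025. Xbp1, Ern1 and Atf6 overlapped between groups, with differences of -0.25, 0.60 and 0.09. Sec61b was at 9.96 and 9.29 CPM in cKO and 3.25 and 4.24 CPM in control tumors, a log2 difference of 1.17 (95% interval -0.20 to 2.54). Its value is uncertain, because 23.9% of its 75-base stretches occur in pseudogene transcripts.

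Sorted cells were also set beside the whole tumor of the same mouse. Within each of the 4 mice with both libraries, the sorted cells had higher Hspa5, Herpud1, Atf4, Ddit3, Ppp1r15a and Trib3, and lower Xbp1, under every scaling tried. Since each table was normalized on its own, and the share of reads in protein-coding genes was 73.4% to 80.1% in sorted and 49.7% to 56.5% in tumor libraries of these mice, these are descriptions with no test. On the library total Ppp1r15a and Trib3 averaged under 1 CPM in tumors and enter through the sorted cells. On the library total, 20 of 31 genes were higher in the sorted cells of all 4 mice (64.5%, where 34.3% of the 15351 genes compared were) and 1 was lower (3.23%, where 11.1% of all genes were). All genes were shifted by a median of 0.41 log2 units on this scale, and the 31 genes had a median of 0.63. Among the 29 that averaged 1 CPM or more in both samples, a filter added after the data were seen, 18 were higher (62.1%, where 35% of 13545 genes were) and the median was 0.615. Scaled to protein-coding genes, the median of all genes was -0.061 and that of the 31 was 0.14. On that scale 13 were higher in all 4 mice (41.9%, where 18.8% of 16393 genes were) and 6 were lower (19.4%, where 22.4% were). The same 13 were higher under trimmed mean and median-ratio scaling, where 22.7% and 21.9% of all genes were. Under those scalings 5 and 6 were lower, where 20.9% and 21.8% of all genes were.

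Of the folding genes, 4 of 15 were higher in all 4 mice and 2 lower when scaled to protein-coding genes. Hspa5 was at 453 ± 66.4 CPM in sorted cells and 136 ± 26.9 CPM in tumors (SD, n = 4 mice each). The mean log2 difference, sorted minus tumor, was 1.74 ± 0.30 on the library total and 1.203 ± 0.30 on protein-coding genes, above the shift of all genes on either scale. Pdia4, Pdia6 and Calr were the other 3, at 0.52 ± 0.32, 0.32 ± 0.18 and 0.27 ± 0.23 log2 units on protein-coding genes. Hsp90b1, which like Hspa5 holds an ERSE, was at 434 ± 54.6 CPM in sorted cells and 477 ± 54.6 CPM in tumors, a difference of -0.14 ± 0.33 on the library total and -0.68 ± 0.40 on protein-coding genes. P4hb was higher in all 4 mice on the library total (0.15 ± 0.13) and lower in all 4 on protein-coding genes (-0.39 ± 0.06). The other 9 folding genes had protein-scaled means between -0.37 (Dnajc3) and 0.63 (Dnajb11) and no common direction in all 4 mice. On protein-coding genes, the 7 ERSE genes thus included higher (Hspa5, Calr and Pdia6), lower (Hsp90b1) and mixed ones (Canx, Creld2 and Dnajc3). The split depended on the scaling. On the library total no folding gene was lower in all 4 mice and Canx was higher, and under trimmed mean scaling P4hb alone was lower.

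Degradation genes divided as well. Herpud1 was at 63.0 ± 12.8 CPM in sorted cells and 20.4 ± 2 CPM in tumors, a log2 difference of 1.56 ± 0.20 on the library total and 1.05 ± 0.25 on protein-coding genes. Edem1 and Derl1 were also higher in all 4 mice, at 0.62 ± 0.27 and 0.23 ± 0.13 on protein-coding genes. Sel1l and Derl2 were lower in all 4 on that scale, at -0.80 ± 0.37 and -0.80 ± 0.30, and on the library total each was lower in 3 of 4 mice. Syvn1 had no common direction, at -0.32 ± 0.44. Among the sensors, Ern1 was at 74.7 ± 25.3 CPM in sorted cells and 27.1 ± 9.64 CPM in tumors, and Atf6 at 169.8 ± 27.6 CPM in sorted cells and 64.6 ± 14.7 CPM in tumors, higher in all 4 mice on both scales. Xbp1 was the reverse, at 513 ± 51.5 CPM in sorted cells and 713 ± 168 CPM in tumors, and its difference was -0.45 ± 0.18 on the library total and -0.99 ± 0.19 on protein-coding genes.

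In the ATF4 branch, Atf4 had the largest difference of the 29 genes read in both samples. It was at 297 ± 74.99 CPM in sorted cells and 66.1 ± 22.3 CPM in tumors, a difference of 2.17 ± 0.63 on the library total and 1.64 ± 0.69 on protein-coding genes. Ppp1r15a was at 35.1 and 46.8 CPM in the sorted cells of cKO 725 and 746 and 18.5 and 50.6 CPM in those of control 706 and 720. In the tumors of the same mice it was at 0.0749 and 0.0847 CPM (cKO) and 3.60 and 0 CPM (control). With tumors at or near 0, the size of its log2 difference is set by the pseudocount and is not given. The Ppp1r15a gene overlaps another protein-coding gene, Tulp2, by the positions in the macrophage table. Only genes listed in a table were searched, and no overlapping gene was found among those of the tumor table. Trib3 was at 2.21 and 3.20 CPM in sorted cKO and 2.92 and 8.55 CPM in sorted control cells of these mice, and its tumor values, given above, include a 0. Ddit3 was higher in all 4 mice by a mean of 1.08 ± 0.92 on the library total, from low levels. Asns was the exception, at 11.8 ± 7.45 CPM in sorted cells and 18.04 ± 4.06 CPM in tumors. It was lower in 3 of 4 mice on the library total (-0.69 ± 0.78) and in all 4 on protein-coding genes (-1.23 ± 0.73). Chac1 has no row in the macrophage table and was not compared.

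**Figure D4:**
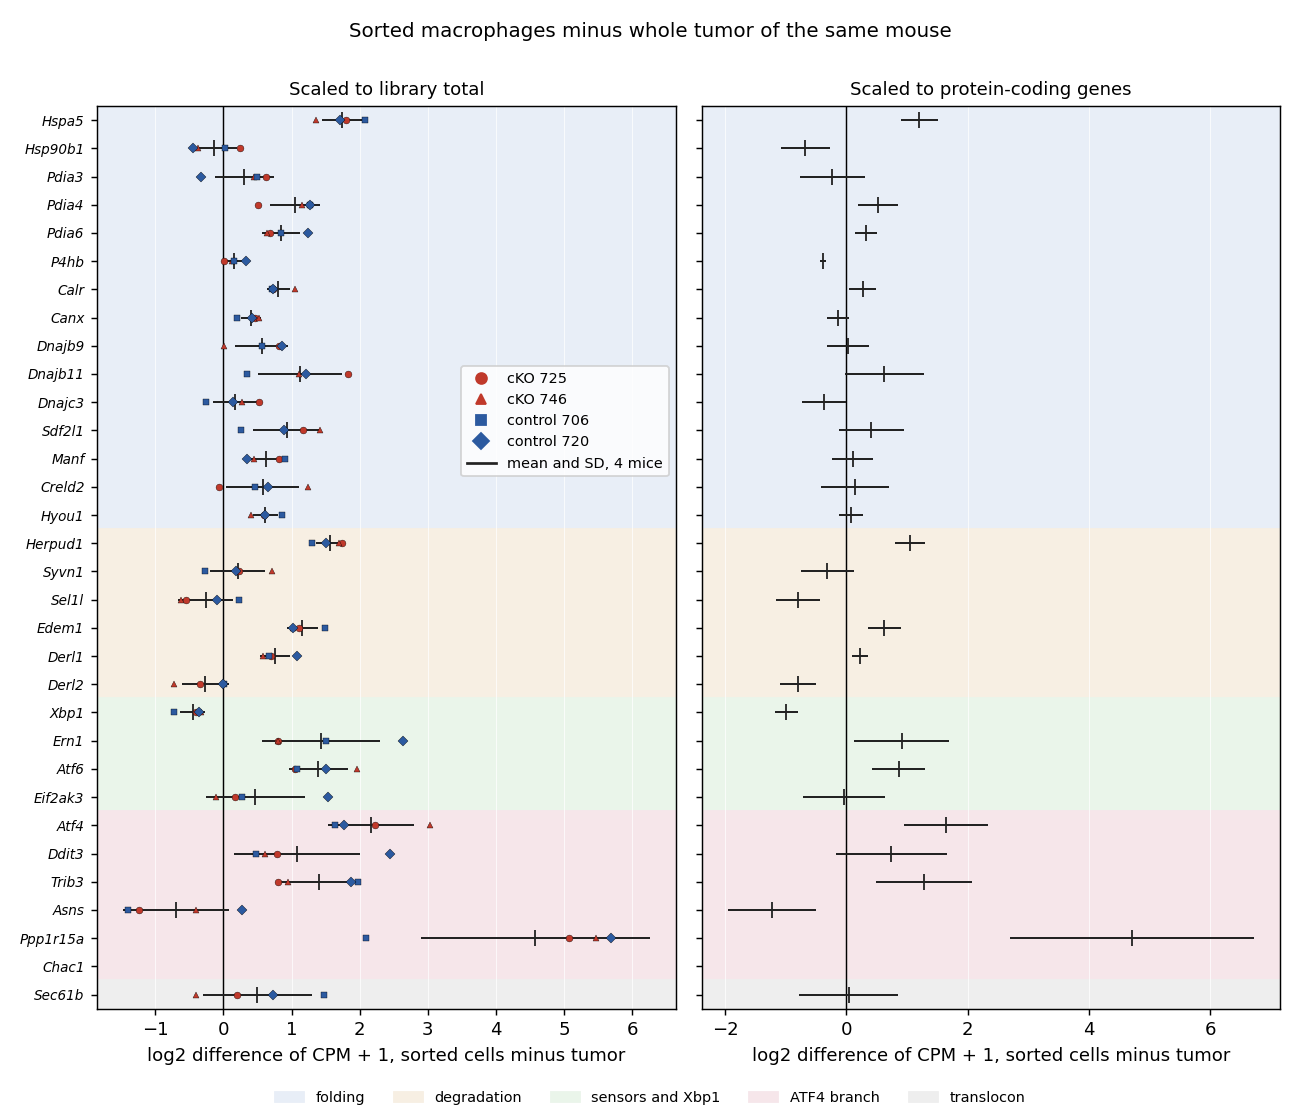
Difference of sorted cells minus whole tumor of the same mouse on the log2 scale of CPM + 1, with library-total scaling (left, 1 point per mouse, bars are mean and SD) and protein-coding scaling (right, mean and SD over 4 mice). Ppp1r15a, whose distance is set by the pseudocount, and Atf4 lie farthest right on both sides, Xbp1 and Asns lie left of 0 in their means, and the folding genes straddle 0 on the right.

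The other genes of the ATF4 branch divided in the same comparison. Of 37 further ATF4 targets and eIF2 kinases compared, 9 were higher and 11 lower in all 4 mice on protein-coding genes (24.3% and 29.7%, beside 18.8% and 22.4% of all genes). On the library total 17 were higher and 5 lower (45.9% and 13.5%, beside 34.3% and 11.1% of all genes). The genes named here were chosen after their values were seen. The 9 higher ones were Atf3, Cebpb, Ddit4, Gdf15, Nupr1, Pmaip1, Sesn2, Slc3a2 and Slc7a11. Atf3, a stress-induced transcription factor, was at 526 ± 70.6 CPM in sorted cells and 2.58 ± 1.88 CPM in tumors (SD, n = 4 mice each). The 11 lower ones were Aldh18a1, Atf5, Eif2ak2, Eif2s1, Gars, Nars, Phgdh, Psat1, Pycr1, Shmt2 and Vldlr. Psat1, an enzyme of serine synthesis, was at 18.9 ± 5.13 CPM in sorted cells and 31.8 ± 10.4 CPM in tumors, lower in all 4 mice on both scales, as were Phgdh, Gars, Vldlr and Eif2ak2. Nars was higher in all 4 mice on the library total and lower in all 4 on protein-coding genes.

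Sorting and the tumor sample differed in handling and in cells at once. Per the labels, the sorted cells went through mechanical dissociation and digestion with Collagenase D and Dnase I, and tumor pieces were snap frozen. The 9 immediate early and heat shock genes summed to 8180 to 9449 CPM in cKO and 7381 to 11610 CPM in control sorted libraries, against 199.6 to 300.2 CPM in cKO and 191.5 to 204 CPM in control tumors. Macrophage markers were higher in the sorted libraries as well, at the sums given above. So was the luminal sum, which in tumors was 1145 to 1198 CPM in cKO and 1133 to 1254 CPM in control. On the library total, Elf5 alone among the luminal genes had a higher mean in tumors, at 165.8 CPM, against 89.2 CPM in sorted libraries. Marker sums and means are given on that scale only, and no other scaling was applied to them. Of 7 plasma cell markers, whose cells rely on Xbp1, 4 were listed (Mzb1, Tnfrsf17 and Iglc1 were not), summing to 49.0 to 72.9 CPM in cKO and 31.2 to 59.3 CPM in control sorted libraries. In tumors they summed to 19.5 to 20 CPM (cKO) and 20.8 to 30.7 CPM (control). Of the 4 listed, only Ighm had a higher mean in sorted libraries (49.5 CPM, against 6.30 CPM in tumors), and it set most of the sorted sums. Jchain, Igkc and Pou2af1 had lower means in sorted libraries, at 0.36, 1.04 and 3.02 CPM, against 3.00, 5.16 and 8.27 CPM in tumors. The effects of digestion, freezing and cell content on the 31 genes cannot be told apart in this design.

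Genes of the pathway outside the 32 gave no call between cKO and control in either table. Of 123 symbols listed, older and newer names of a gene included, 113 genes were tested in macrophages. None passed (limma), 2 had an unadjusted p under 0.05 (2.63% of all genes did), and the median was 0.051. The groups stood apart for 7 of them, 4 higher and 3 lower in cKO, where 3.78% and 3.45% of all genes did. Those named by rule included the degradation factors Ufd1 and Edem2 on the higher side, and Mbtps2, which cuts ATF6, Dad1, a subunit of the oligosaccharyltransferase, and Spcs1, of the signal peptidase, on the lower. Ufd1, which works with the ATPase that extracts proteins from the ER, was at 21.1, 26.5 and 19.5 CPM in cKO and 19.1, 15.8 and 10.3 CPM in control macrophages. Mbtps2 was at 48.0, 29.9 and 53.0 CPM in cKO and 83.6, 56.1 and 56.9 CPM in control macrophages, which is -0.59 on the log2 scale with an SE of 0.31 and an adjusted limma p of 0.9998. Translocon and signal peptide genes were mostly negative in macrophages, 11 of 16, and the other degradation factors mostly positive, 16 of 20, beside 54.7% positive over all genes. These directions are on the library total with every sorted library included. They were not followed under other scalings or with a library left out.

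In tumors 110 of these genes were tested, none passed (limma), 8 had an unadjusted p under 0.05 (5.85% of all genes did) and the median was 0.14. Vldlr, a lipoprotein receptor that ATF4 induces, was at 97.95 and 109 CPM in cKO and 57.2 and 55.4 CPM in control tumors, which is 0.86 on the log2 scale with an SE of 0.23 and an adjusted limma p of 0.717. Sdf2, the relative of Sdf2l1, was at 23.0 and 23.0 CPM in cKO and 40.9 and 43.6 CPM in control tumors. Slc7a5, an amino acid transporter of the ATF4 list, was at 44.5 and 73.1 CPM in cKO and 93.9 and 92.8 CPM in control tumors. Fam8a1 and Creb3l2 on the higher side and Edem3 on the lower were the others named by rule. Both cKO tumors stood above both controls for 27 of the 110 and below for 16, where 21.2% and 14.3% of all genes did.

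Some of the values above may be shared with neighbouring genes. Overlap was checked on whole gene spans and not on exons, and shared reads were not measured. The spans of Ddit3 (with Mars1), Derl2 (Mis12), Manf (Dcaf1 and Rbm15b), Pdia3 (Catsper2), Pdia6 (Atp6v1c2) and Syvn1 (Mrpl49) overlap another protein-coding gene in both tables. Whether counting used the strand is not given in the sources used here, so reads of such pairs may not be separable. By gene identifier, Hspa5 (ENSMUSG00000026864) lies on the plus strand of chromosome 2 from 34771970 to 34777547 and Atf4 (ENSMUSG00000042406) on the plus strand of chromosome 15 from 80255184 to 80257541. Herpud1 (ENSMUSG00000031770) lies on the plus strand of chromosome 8 from 94386438 to 94395377, and Ppp1r15a (ENSMUSG00000040435) on chromosome 7, minus strand, between 45522916 and 45526268, all in GRCm38.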

How the data were processed

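RNA was depleted of ribosomal RNA and not selected for poly(A), per the labels' protocols. STAR 2.7.8a, Partek and the builds GRCm38 and mm10 are named, per the submitters' processing notes. The deposited values are log2 of CPM + 1 made by the authors, as read from the values themselves: undoing the log gives library sums of 1e+06. Gene positions in the tables were used only to find genes whose spans overlap. The printed gene coordinates come from GENCODE vM21 by gene identifier, and promoters from RefSeq. Whether counting used the strand is not given in the sources used here.

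Each table's genes averaging 1 CPM or more were tested with limma 3.58.1 (R 4.3.3) on the log2 values, with a mean-variance trend and Benjamini-Hochberg adjustment over all genes tested. No count test was run, because 80.8% to 89.5% of low values came out as whole reads within 0.1 read. P-values set each difference against the spread between mice, with the variance of each gene moderated toward a trend over all genes tested. Alternatives were the pseudocount, the filter, trimmed mean, median-ratio and protein-coding scaling, array weights, no trend and each library left out. Other pathway genes were named by a rule: in each table, those called, and otherwise up to 3 a direction with the lowest unadjusted p among genes whose groups did not overlap and whose mean was at least 5 CPM. A gene that this rule names is not reported here. The 32 genes and all lists were chosen with earlier results of these data known. The fits were tested on simulated data.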

Additional observations from a re-analysis of the deposited data

How the results depend on the processing

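All values here are log2 differences unless a count is named. No paired analysis was possible because no cKO mouse shares a number with a control mouse and the labels do not name the partners of the size-matched tumors. With 2 or 3 mice a group, leaving out 1 library changed the sign for 18 of 31 genes in macrophages and 11 of 29 in tumors, and the other settings for 5 and 3. The cause was not tested.

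With 1 library left out, the number of all genes called in macrophages was 0 to 3 (0 with all 6; 3 without control 775, none of them among the 31). The medians ranged as follows, cKO minus control or sorted minus tumor: macrophage folding genes (-0.106 to 0.244), tumor folding genes (-0.123 to 0.205), tumor degradation genes (0.156 to 0.214), tumor ATF4 branch genes (-0.724 to -0.151), macrophage ATF4 branch genes (0.0829 to 0.71), macrophage sensors (0.0527 to 0.311), tumor sensors (0.037 to 0.638), sorted minus tumor (0.612 to 0.778). In macrophages the genes that changed sign ranged over Hsp90b1 (-0.106 to 0.195), Sdf2l1 (-0.193 to 0.518), Creld2 (-0.49 to 0.617), Ern1 (-0.476 to 0.0932), Asns (-0.459 to 0.357), Pdia4 (-0.107 to 0.365), Calr (-0.133 to 0.377), Canx (-0.0684 to 0.131), Sec61b (-0.254 to 0.0996), Pdia6 (-0.481 to 0.13), Hyou1 (-0.207 to 0.116), Dnajb9 (-0.0293 to 0.385), Trib3 (-0.848 to 0.1), Hspa5 (-0.182 to 0.467), Dnajb11 (-0.16 to 0.67), Manf (-0.0254 to 0.359), Edem1 (-0.108 to 0.228), Xbp1 (-0.132 to 0.229). In tumors they ranged over Calr (-0.215 to 0.022), Canx (-0.193 to 0.0118), Atf6 (-0.205 to 0.388), Hspa5 (-0.0758 to 0.491), Pdia3 (-0.187 to 0.236), Pdia6 (-0.149 to 0.205), Derl2 (-0.0641 to 0.365), Asns (-0.647 to 0.104), P4hb (-0.18 to 0.0426), Edem1 (-0.0404 to 0.328), Xbp1 (-0.586 to 0.0866).

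In macrophages Creld2 (0.0191) was -0.0509 with a pseudocount of 0.1, -0.00114 with median-ratio and -0.0459 with protein-coding scaling. Protein-coding scaling gave -0.0221 for Hsp90b1, -0.0221 for Canx and -0.00816 for Xbp1, and array weights gave 0.0441 for Sec61b. In tumors Pdia3 was -0.043, -0.0577 and -0.093 and Pdia6 was -0.0387, -0.0533 and -0.0886 under trimmed mean, median-ratio and protein-coding scaling, and Atf6 was -0.0248 under the last. The tumor degradation median was 0.152 with a pseudocount of 5 and 0.105, 0.0902 and 0.057 under those 3 scalings, and the tumor folding median was -0.093 under protein-coding scaling. The sorted minus tumor median of 0.63 was 0.217, 0.192 and 0.137 under them.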

Other observations

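The direction of ER folding factors outside the 32 genes depended on the scaling. Of 19 compared within the 4 mice that gave both samples, 2 were higher and 7 lower in all 4 on protein-coding scaling (10.5% and 36.8%, beside 18.8% and 22.4% of all genes), with a median log2 difference of -0.47. On the library total 5 were higher and 1, Mesd, lower (26.3% and 5.26%, beside 34.3% and 11.1% of all genes), with a median of 0.041. The genes given next were picked after their values were seen. Ero1b, an oxidase that recharges disulfide isomerases, was at 43.2 ± 4.82 CPM in sorted cells and 19.3 ± 5.85 CPM in tumors (SD, n = 4 mice each). Hspa13, a chaperone of the HSP70 family, was at 68.4 ± 9.54 CPM in sorted cells and 101 ± 23.2 CPM in tumors, and Fkbp14, a collagen-folding isomerase, at 8.90 ± 5.48 CPM in sorted cells and 21.5 ± 5.96 CPM in tumors. The translocon-associated genes divided, with Ssr4 at 68.4 ± 9.24 CPM in sorted cells and 21.7 ± 4.502 CPM in tumors, and Sec63 at 118 ± 10.4 CPM in sorted cells and 159 ± 15.7 CPM in tumors. The 5 fibroblast markers summed to 56.5 to 1156 CPM in cKO and 59.5 to 418.8 CPM in control sorted libraries, against 320.9 to 437 CPM in cKO and 572.8 to 682 CPM in control tumors, and their part in these values was not tested.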
